A study of Mus musculus with 6 samples.

Results

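The HSP70 proteins are ATP-driven chaperones, and 9 genes of the family, Hspa1a, Hspa1b, Hspa1l, Hspa2, Hspa4, Hspa4l, Hspa5, Hspa8 and Hspa9, were followed through 6 mouse RNA sequencing libraries. The members were chosen by symbol, and all 9 were among the 23889 genes of each table. The cells at the centre of the study were androgenetic haploid embryonic stem cells (AG-haESCs), with 1 library from each of the lines A129-2, AOS-14 and AOS-16. They come from embryos made by injecting a sperm head into an oocyte without its spindle, carry the strain label F1 hybrid C57BL/6 X DBA/2, grew on feeder cells in serum replacement with 2i (inhibitors of MEK and GSK3), and were sorted as haploid cells in G0/G1. One library is labelled round sperm, of cell type sperm and of the same strain label. Its protocol text is that of the AG-haESCs, so the labels do not say how its cells were collected or how old the sperm donors were, while oocyte donors were aged 8 to 10 weeks. A further 2 libraries are of embryonic stem cells labelled XX (ESC XX), derived on an Oct-GFP (C57) background, grown in serum, LIF and 2i, and collected after feeder removal.

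An HSP70 protein binds a stretch of an unfolded client and lets it go in a cycle of ATP hydrolysis. J-proteins (the HSP40 family) start hydrolysis, and nucleotide exchange factors release ADP and reset the cycle. Hspa8 encodes the constitutive cytosolic protein HSC70, and Hspa1a and Hspa1b encode the heat-inducible pair. Hspa5 encodes BiP of the endoplasmic reticulum (ER), and Hspa9 encodes mortalin of the mitochondrial matrix. Male germ cells use further genes. Hspa2 is made during meiosis and is needed for sperm formation in the mouse, and Hspa1l is made in spermatids. Hspa4 and Hspa4l encode large relatives (the HSP110 group) that act as exchange factors.

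The files give FPKM, fragments scaled by transcript length and by sequencing depth, with no counts. The steps between low values put depth at about 8.55 M to 18.3 M fragments a library, and 11406 to 12515 genes reached 1 FPKM. The sums of 8 pluripotency markers were 4130 to 5439 FPKM in AG-haESCs, 251 in round sperm, where Klf4 made up 87.1% of it, and 3989 and 4042 in ESC XX. The sums of 8 round spermatid markers were 2.26 to 4.48 FPKM in AG-haESCs, 37468 in round sperm, and 2.54 and 1.61 in ESC XX. The sums of 8 meiotic spermatocyte markers were 21.8 to 43.8 FPKM in AG-haESCs and 8.14 and 6.90 FPKM in ESC XX. In round sperm the sum was 11136 FPKM, 97.4% of it Ldhc and Mael. Among the rest, Sycp3 stood at 90.2 FPKM in round sperm, against 3.26 to 17.7 in AG-haESCs. Dmc1 alone was lower in round sperm (1.14 FPKM) than in every stem cell library. Markers of Sertoli and Leydig cells summed to 6.77 and 3.76 FPKM in round sperm, within the range of the AG-haESC lines for the Leydig list (3.02 to 5.38) and for the Sertoli list (6.11 to 10.4). The pair of ESC XX libraries differed by little more than counting noise (1.10 to 1.30 times the median chi-square expected by chance, against 6.63 to 49.6 times for pairs of AG-haESC lines), so their spread may be technical.

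The 300 bases around the start of a gene show how closely Hspa1a and Hspa1b resemble each other and where motifs for heat shock and ER stress lie. These sequences, from RefSeq on build GRCm38.p6, run 5′ to 3′ on the strand of the gene and cover the 250 bases before its start and the 50 after it. The submitters' processing notes name build mm9, on which these coordinates do not hold. Capitals mark a CCAAT box, a heat shock element of paired units (GAANNTTC or TTCNNGAA) or an ER stress element (a CCAAT box, 9 bases of any kind and CCACG), each searched on both strands.
Hspa1a promoter, chr17:34972107-34972406, minus strand: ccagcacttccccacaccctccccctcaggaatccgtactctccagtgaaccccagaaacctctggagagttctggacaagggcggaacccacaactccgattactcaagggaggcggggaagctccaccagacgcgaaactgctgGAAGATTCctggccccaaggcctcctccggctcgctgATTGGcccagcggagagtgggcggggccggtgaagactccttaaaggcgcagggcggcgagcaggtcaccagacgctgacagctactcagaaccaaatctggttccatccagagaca
Hspa1b promoter, chr17:34959189-34959488, minus strand: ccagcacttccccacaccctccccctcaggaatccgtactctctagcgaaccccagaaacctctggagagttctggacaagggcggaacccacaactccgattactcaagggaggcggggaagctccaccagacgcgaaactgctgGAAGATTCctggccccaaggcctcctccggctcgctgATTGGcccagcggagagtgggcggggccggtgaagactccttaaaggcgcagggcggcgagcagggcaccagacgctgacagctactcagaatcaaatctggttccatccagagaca
Hspa1l promoter, chr17:34972453-34972752, plus strand: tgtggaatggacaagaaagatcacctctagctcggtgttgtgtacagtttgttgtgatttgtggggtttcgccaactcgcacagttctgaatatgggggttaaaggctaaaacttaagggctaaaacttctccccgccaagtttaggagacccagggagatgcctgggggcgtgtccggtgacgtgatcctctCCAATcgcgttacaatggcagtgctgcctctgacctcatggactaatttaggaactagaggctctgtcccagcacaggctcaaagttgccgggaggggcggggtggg
Hspa2 promoter, chr12:76404120-76404419, plus strand: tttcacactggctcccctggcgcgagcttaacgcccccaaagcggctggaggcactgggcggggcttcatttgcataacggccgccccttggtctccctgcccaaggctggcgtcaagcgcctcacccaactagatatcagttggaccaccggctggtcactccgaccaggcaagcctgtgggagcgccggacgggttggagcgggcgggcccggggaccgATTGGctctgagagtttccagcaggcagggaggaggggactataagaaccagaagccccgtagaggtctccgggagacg
Hspa5 promoter, chr2:34771840-34772139, plus strand: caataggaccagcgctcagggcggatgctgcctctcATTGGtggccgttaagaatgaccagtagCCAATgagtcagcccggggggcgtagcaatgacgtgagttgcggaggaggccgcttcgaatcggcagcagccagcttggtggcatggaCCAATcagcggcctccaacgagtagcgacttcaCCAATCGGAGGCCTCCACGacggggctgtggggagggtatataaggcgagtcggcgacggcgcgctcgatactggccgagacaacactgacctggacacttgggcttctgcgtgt

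Of the 9 members, the promoter windows of 7 were used. Hspa8 had no promoter entry, and entries on chromosome 18, where Hspa9 lies, were left out. The shares over all promoters given below keep that chromosome. The Hspa1a and Hspa1b windows matched at 296 of 300 bases, and each held a paired heat shock element starting at -104, a motif found in 15.1% of 32851 promoters of this length. Hspa1l lies next to Hspa1a and runs the other way, with 547 bases between the 2 starts. Its window shared 43.3% of aligned positions with that of Hspa1a and held a CCAAT box (37.4% of promoters) but no heat shock element, and the Hspa2 window likewise held only a CCAAT box of these 3 motifs. The window of Hspa5 held a full ER stress element starting at -65, a motif of 0.119% of promoters. Such matches describe the sequence and say nothing of which factor binds there.

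Hspa2, Hspa1l and Hspa4l made up most HSP70 transcripts of round sperm and were minor in every stem cell library. Hspa2 stood at 3.33, 4.08 and 3.60 FPKM in A129-2, AOS-14 and AOS-16, against 1492 FPKM in round sperm, where it was the gene with the 87th highest value. All 3 AG-haESC lines were far below round sperm and close to each other. Hspa1l stood at 0.244, 0.228 and 0.877 FPKM in the same lines, against 304.9 FPKM in round sperm. Its values in AG-haESCs rest on an estimated 5.15 to 21.7 fragments, of which AOS-16 had the most. Hspa4l stood at 3.84, 2.62 and 3.18 FPKM in AG-haESCs, against 641 FPKM in round sperm. Again no AG-haESC line came near the round sperm level.

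Against round sperm, tested by limma on log2(FPKM + 1) with Benjamini-Hochberg adjustment over 15938 genes, 1 of the 9 members rose and 3 fell in AG-haESCs, where a call needed an adjusted p under 0.05 and a difference of at least 1. Of all genes tested 61.9% were called, 22.8% as higher and 39.1% as lower, so the share of members called is not above the background. Of these calls 36.8% were higher in AG-haESCs, and 52.1% were after rescaling to the same total. The sizes were Hspa2 -8.32 ± 0.14 (log2 ± SE, n = 3 and 1, limma adjusted p = 0.000216), Hspa1l -7.75 ± 0.35 (adjusted p = 0.00170) and Hspa4l -7.26 ± 0.22 (adjusted p = 0.000779). Hspa8 rose by 5.56 ± 0.18 (limma adjusted p = 0.000900). These 4 calls held under every other scaling, filter and left-out line that was tried. As round sperm is 1 library, the test takes the spread from the 3 lines and assumes that the lone library varies like them. Libraries of whole cell populations cannot tell fewer expressing cells from less RNA per cell. Whether the round sperm library held meiotic cells beside spermatids, and what part either played, was not tested.

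Hspa8, the gene of constitutive HSC70, had the opposite distribution. It stood at 1514, 1778 and 1424 FPKM in A129-2, AOS-14 and AOS-16, against 32.1 FPKM in round sperm, and at 2296 and 2384 FPKM in ESC XX. It was among the 73 highest genes of each AG-haESC line and the 28 highest of each ESC XX library, against rank 4664 in round sperm. The ratio of Hspa2 to Hspa8, which does not depend on how libraries were scaled, was 0.00220, 0.00229 and 0.00253 in the AG-haESC lines, against 46.5 in round sperm. In ESC XX it was 0.00197 and 0.00203.

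**Figure D1:**
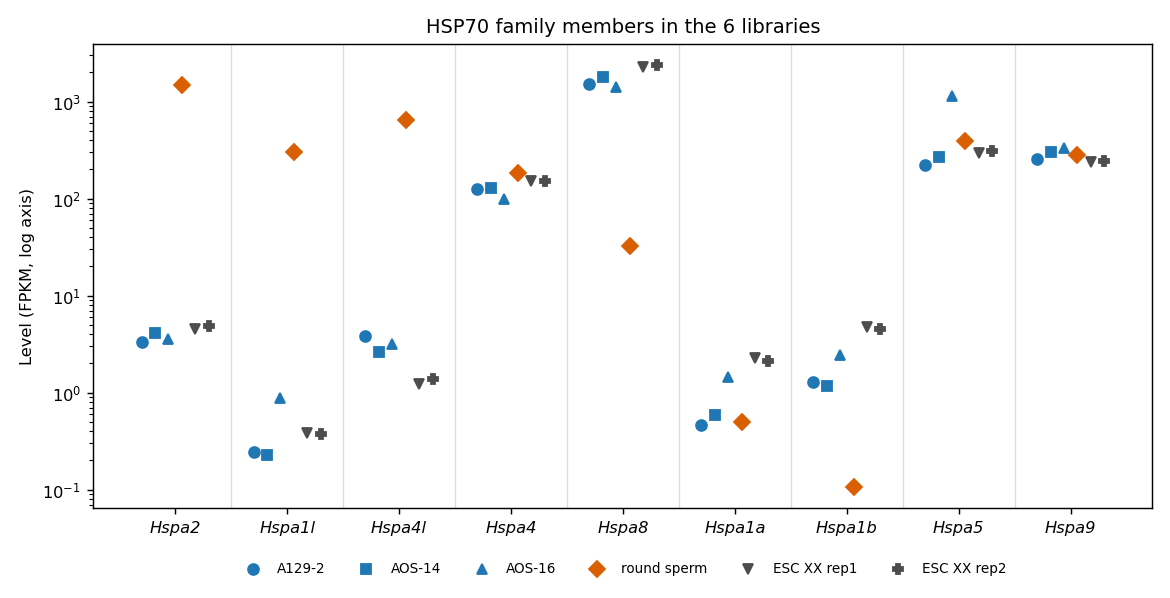
FPKM of each member (log axis) in the 3 AG-haESC lines (blue), the round sperm library (orange) and the 2 ESC XX libraries (grey), 1 point a library. Round sperm stands far above all stem cell libraries for Hspa2 (1492 FPKM), Hspa1l and Hspa4l and far below them for Hspa8 (32.1 FPKM), while AOS-16 stands apart for Hspa5 (1147 FPKM).

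Summed over the 9 members, the libraries differed less than they did in Hspa2, Hspa1l, Hspa4l or Hspa8. The sum was 2126, 2487 and 3018 FPKM in A129-2, AOS-14 and AOS-16, 3329 in round sperm, and 2994 and 3107 in ESC XX. In TPM, which scales every library to the same total, it was 4174, 3517 and 5522 in AG-haESCs and 2687 in round sperm. In ESC XX it was 5899 and 6120 TPM, above every other library, so the order of the groups depends on the scale. Genes of transcripts under 200 nt took 12.7% of the FPKM total of AOS-14 and 6.26% of that of round sperm. Elsewhere they took at most 0.111%, so these short genes lower TPM most in AOS-14 and round sperm. The FPKM total itself was 1.24e+06 in round sperm, against 507556 to 707325 in the other libraries. TPM divides by this total, so it lowers round sperm further, with or without the short genes. Hspa2, Hspa1l and Hspa4l together held 0.294 ± 0.0494% of the family sum in AG-haESCs (SD, n = 3), against 73.2% in round sperm, and 0.205% and 0.212% in ESC XX. In round sperm Hspa2 alone held 44.8%, Hspa4l 19.3% and Hspa1l 9.16%. Hspa8 held 71.2%, 71.5% and 47.2% in A129-2, AOS-14 and AOS-16, against 0.965% in round sperm, and 76.7% in both ESC XX libraries.

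**Figure D2:**
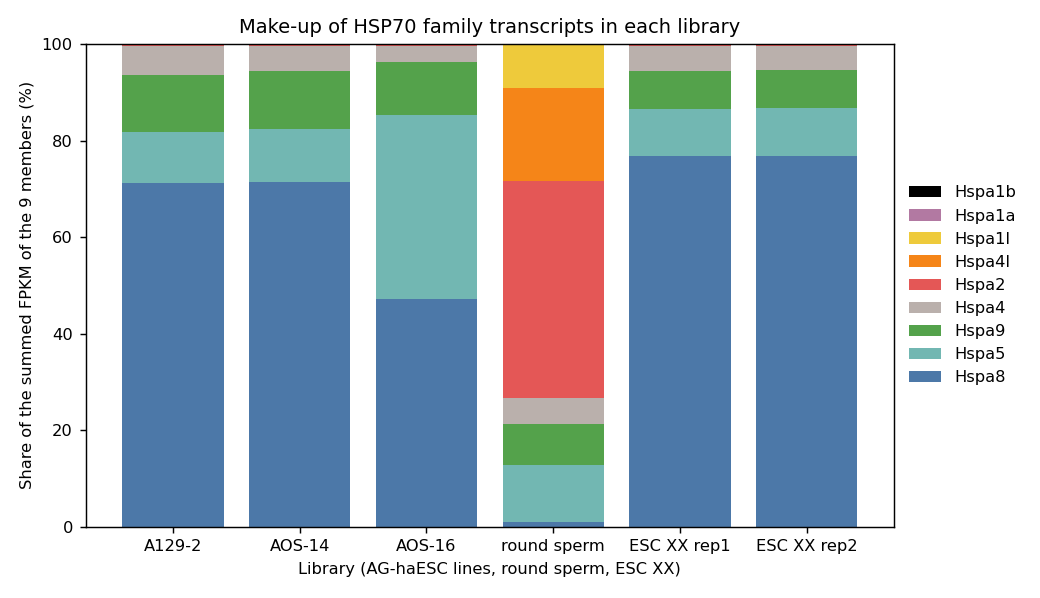
Share (%) of the summed FPKM of the 9 members held by each member, 1 bar a library, in the order AG-haESC lines, round sperm and ESC XX. Hspa8 (blue) is the largest part of the 5 stem cell bars, Hspa2 (red, 44.8%) that of round sperm, and Hspa5 (teal) widens to 38.0% in AOS-16.

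Within the HSP110 pair, Hspa4l was the lower gene in every stem cell library and the higher one in round sperm. Hspa4 stood at 125, 129 and 100.3 FPKM in A129-2, AOS-14 and AOS-16, against 184 in round sperm, a difference of -0.64 ± 0.21 that was not called (limma adjusted p = 0.0839). The ratio of Hspa4 to Hspa4l was 37.8 ± 9.96 in AG-haESCs (SD, n = 3), against 0.287 in round sperm. In ESC XX it was 123 and 109. Hspa4 stood at 152 FPKM in both ESC XX libraries.

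Whether Hspa4 and Hspa9 differed between AG-haESCs and round sperm depended on the scaling. The median log2 difference of all genes was -0.49 in FPKM and 0.40 after rescaling to the same total, and the members move with it. Hspa9 stood at 255, 302 and 335 FPKM in AG-haESCs, against 281 in round sperm (0.07 ± 0.21, limma adjusted p = 0.779). Relative to the all-gene median this is 0.57. Rescaled to the same total it was called higher (1.16, limma adjusted p = 0.0424), as it was when genes of transcripts under 200 nt were also dropped (1.13, limma adjusted p = 0.0206) and after quantile normalization (1.80, limma adjusted p = 0.0110). Hspa4, at -0.15 relative to the median of all genes, changed sign to 0.44 after rescaling and was called higher after quantile normalization (1.13, limma adjusted p = 0.0188).

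The heat-inducible pair was low everywhere. Hspa1a stood at 0.458, 0.584 and 1.46 FPKM in A129-2, AOS-14 and AOS-16, against 0.494 in round sperm, with 2.29 and 2.10 FPKM in ESC XX. Hspa1b stood at 1.28, 1.18 and 2.45 FPKM in AG-haESCs, against 0.105 in round sperm, with 4.76 and 4.50 FPKM in ESC XX. Estimated fragments were 11.6 to 43.5 for Hspa1a and 30.8 to 68.8 for Hspa1b in AG-haESCs, and 14.7 and 2.96 in round sperm. The 2 genes are near copies of each other, so the authors' estimate may have split shared reads between them, and the pair is safer as a sum. That sum was 1.74, 1.76 and 3.91 FPKM in AG-haESCs, against 0.600 in round sperm. Neither gene was called between these groups (Hspa1a 0.26 ± 0.40, limma adjusted p = 0.609, Hspa1b 1.22 ± 0.36, limma adjusted p = 0.0683). Hspa1b was called with a pseudocount of 0.1 (limma adjusted p = 0.0247), after quantile normalization (limma adjusted p = 0.0309), with those short genes dropped and totals made equal (limma adjusted p = 0.0496) and without AOS-16 (limma adjusted p = 0.0197). In round sperm Hspa1l stood 617 times as high as its neighbour Hspa1a, while in AG-haESCs the ratio was 0.391 to 0.600, and in ESC XX 0.166 and 0.180.

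Most J-protein genes fell in AG-haESCs relative to round sperm, where 39.1% of all genes tested were called lower and 22.8% higher. All 6 testis J-proteins fell, with a median of -8.02, and all 6 were still called lower after rescaling and quantile normalization, although 5 were without AOS-16. Dnajb3 (-10.30 ± 0.33, limma adjusted p = 0.000831), Dnajb8 (-8.46 ± 0.09, limma adjusted p = 8.01e-05) and Dnajc5b (-8.46 ± 0.47, limma adjusted p = 0.00253) led this list. Dnajb3 stood at 0.905, 0.559 and 0.222 FPKM in the AG-haESC lines, against 1939 in round sperm. Among 13 widely expressed J-proteins of classes A and B, 10 fell and none rose, with a median of -2.63 against -0.49 for all genes. That count was 5 after rescaling to the same total, 6 after quantile normalization, and 6 or 7 with a line left out. Dnaja4 (-6.14 ± 0.35, limma adjusted p = 0.00262), Dnajb14 (-6.10 ± 0.22, limma adjusted p = 0.00107) and Dnajb4 (-6.07 ± 0.19, limma adjusted p = 0.000765) were the furthest down.

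Among 9 exchange factors 4 fell and 1 rose (median -1.86), numbers near the shares of all genes called lower (39.1%) and higher (22.8%). Bag5, a BAG domain co-chaperone, stood at 7.30, 5.60 and 4.73 FPKM in AG-haESCs, against 985 in round sperm (-7.18 ± 0.28, limma adjusted p = 0.00124), and Sil1, the exchange factor of BiP, at 10.5, 10.2 and 11.7 against 204 (-4.12 ± 0.12, limma adjusted p = 0.000741). Hspbp1, an exchange factor of the cytosol, was the next furthest down (-2.25 ± 0.44, limma adjusted p = 0.0304). Its call was lost after rescaling (limma adjusted p = 0.0778), after quantile normalization (limma adjusted p = 0.143), without A129-2 (limma adjusted p = 0.0962) and without AOS-14 (limma adjusted p = 0.0700). Over the list 2 fell and 1 rose after rescaling to the same total, and 2 fell and 2 rose after quantile normalization (median -0.25). The one that rose in FPKM was the mitochondrial Grpel2 (1.90, limma adjusted p = 0.0206), named after its value was seen. None of the 3 adaptor genes Stip1, St13 and Stub1 was called in FPKM, while 2 rose after rescaling and 3 after quantile normalization.

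Hsp90ab1, the constitutive HSP90, rose by 4.78 ± 0.19 (limma adjusted p = 0.00127) and was the only 1 of 4 HSP90 genes called, though 2 were after rescaling or quantile normalization. The ratio of Hsp90ab1 to Hsp90aa1, the inducible form, was 1.57, 1.19 and 1.69 in the AG-haESC lines, against 0.0498 in round sperm. Of 4 heat shock factors 3 fell, led by Hsf5 (-6.99 ± 0.25, limma adjusted p = 0.00107) and Hsf2 (-2.02 ± 0.17, limma adjusted p = 0.00555). Only 1 of the 4 fell after rescaling or quantile normalization. Of all genes tested 22.8% were called higher and 39.1% lower in FPKM. After rescaling, calls over all genes also shifted to higher, from 36.8% to 52.1% of calls. Of 10 chaperone genes known as targets of HSF1 outside the HSP70 family 6 rose and 1, Dnajb1, fell, and with rescaling or quantile normalization 8 rose. Hspb1 (5.98 ± 0.21, limma adjusted p = 0.000978), Hspb8 (5.98 ± 0.31, limma adjusted p = 0.00219) and Hspd1 (5.84 ± 0.26, limma adjusted p = 0.00169) led the list. Of 10 immediate early genes, markers of acute stimulation, 7 rose, led by Ier2 (5.25 ± 1.09, limma adjusted p = 0.0341), Fos (5.00 ± 0.78, limma adjusted p = 0.0191) and Ier3 (4.50 ± 0.82, limma adjusted p = 0.0257). Without AOS-14 3 rose, and without AOS-16 3 rose, and in neither case did these 3 leading genes keep their calls.

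Among mitochondrial chaperones, Hspa9 was far more abundant than Hspd1 in round sperm and near its level in every stem cell library. Hspd1 and Hspe1 encode the HSP60 and HSP10 that fold proteins beside mortalin in the matrix. Hspd1 stood at 319, 422 and 303 FPKM in AG-haESCs, against 5.04 in round sperm, whereas the levels of Hspa9 overlapped in FPKM. The ratio of Hspa9 to Hspd1 was 0.799, 0.717 and 1.11 in the AG-haESC lines, against 55.8 in round sperm. In ESC XX it was 0.662 and 0.651. Of the 9 genes of mitochondrial import and folding 3 rose and 1 fell, against 4 and 1 after rescaling and 6 and 0 after quantile normalization. The 3 that rose in FPKM stand beside 22.8% of all genes called higher, and the 1 that fell beside 39.1% called lower. Hspe1 rose by 4.40 ± 0.32 (limma adjusted p = 0.00427). Pam16, a subunit of the import motor that mortalin is part of, fell by 2.55 ± 0.38 on the log2 scale (limma adjusted p = 0.0170). Its call was lost when A129-2 (limma adjusted p = 0.0647) or AOS-16 (limma adjusted p = 0.0690) was left out, and after quantile normalization, where its difference was -0.91.

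Of 7 genes of proteins known to work with HSPA2 5 fell (median -3.40), and 4 fell and 1 rose after rescaling. Of all genes tested 39.1% were called lower and 22.8% higher in FPKM. The transition proteins Tnp1 and Tnp2, which are HSPA2 clients in spermatids and are also among the spermatid markers, had values of 0 in both A129-2 and AOS-16. In AOS-14 they stood at 0.227 and 0.438 FPKM, against 9442 and 8030 FPKM in round sperm. Shcbp1l, a testis partner of HSPA2, stood at 0.3002 to 0.759 FPKM in AG-haESCs, against 190.2 in round sperm, and fell (limma adjusted p = 0.000890). Among 6 further genes of the HSP70 superfamily 1 rose and 3 fell (median -0.02), numbers near the shares of all genes. Hspa14 rose by 5.00 ± 0.14 (limma adjusted p = 0.000664), while Hspa13 (-2.27 ± 0.19, limma adjusted p = 0.00550) and Hspa12a (-1.50 ± 0.29, limma adjusted p = 0.0292) fell. None of the 3 called lower in this list in FPKM was called lower after rescaling to the same total.

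**Figure D3:**
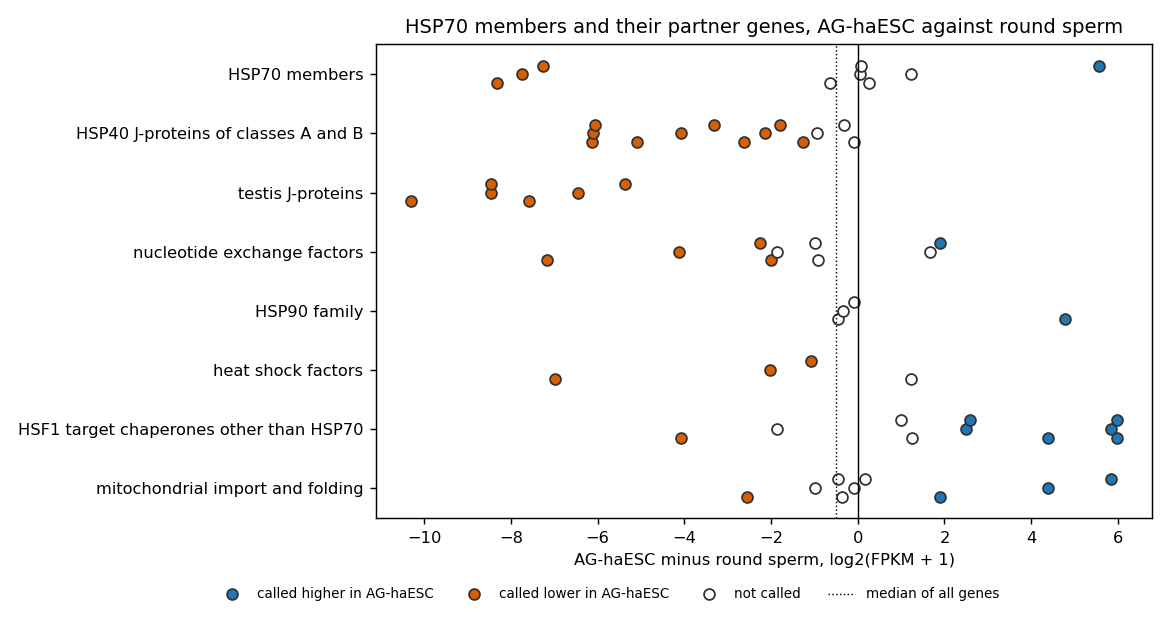
Difference of each gene between AG-haESCs and round sperm (x axis, log2(FPKM + 1), positive is higher in AG-haESCs) for the 9 members and 7 lists of partner genes, 1 point a gene. Filled points were called by limma and the dotted line is the median of all genes (-0.49), the testis J-proteins all lie to its left and Hspa8 (5.56) to the far right of the members.

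AOS-16 stood apart from the other lines in Hspa5, the gene of BiP. Hspa5 stood at 1147 FPKM in AOS-16, against 222 in A129-2 and 269 in AOS-14, and was at 393 in round sperm and at 295 and 310.5 in ESC XX. In TPM AOS-16 was 2.26 (log2) above the higher of the other lines. Each line is 1 library, so this difference has no replicate check. The other members differed less between lines, and apart from Hspa5 none was above both other lines by 1 on the log2 scale in AOS-16. Hspa1a (0.95), Hspa1l (0.82) and Hspa1b (0.64) came nearest, all 3 at under 3 FPKM.

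The other ER chaperones and unfolded protein response genes were higher in AOS-16 as well. Of 17 listed genes all 17 were above both other lines, and 11 were above both by at least 1 on the log2 scale, against 36.7% and 2.34% of 13569 genes. Only AOS-16, the line that stood apart in Hspa5, was scored in this way, so the counts describe that line and are no test. The 11 became 9 in FPKM as deposited and 10 without short genes. Of the 17, 15 were highest in AOS-16 among the 5 stem cell libraries, against 24.7% of genes, the exceptions being Dnajb9 and Xbp1. The following genes were picked after their values were seen. Hsp90b1, the HSP90 of the ER (GRP94), stood at 2179 TPM in AOS-16, against 379 in A129-2 and 424 in AOS-14, with 699 and 729.5 TPM in ESC XX. Pdia4, a disulfide isomerase, stood at 570 TPM in AOS-16, against 118 and 134 in the other lines, and Manf, a secreted ER stress protein, at 408 against 95.5 and 84.4. The ratio of Hsp90b1 to Hspa5 stayed between 0.869 and 1.33 in all 6 libraries. Of the 14 listed genes whose promoter window was searched, with chromosome 18 left out, 6 held the full ER stress element shown above for Hspa5. Over all promoters the share was 0.119%, counted per promoter and not per gene. The 6 were Calr, Canx, Creld2, Dnajc3, Hsp90b1 and Pdia6. Of these, Calr (0.35) and Canx (0.64) were not above both other lines by 1 on the log2 scale in AOS-16. Whether the element has a part in the AOS-16 levels was not tested.

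Outside the ER list such differences were few among chaperone genes. Of 13 J-proteins of classes A and B, 9 exchange factors and 10 HSF1 targets, none was above both other lines by 1. In the HSP90 family 1 of 4 was, and among the other HSP70 superfamily genes 1 of 5, and these are Hsp90b1 and Hyou1 (1.68), which are also in the ER list. Feeder fibroblast markers summed to 498 TPM in AOS-16, against 267 in A129-2 and 311 in AOS-14, and with 2089 and 2087 in ESC XX. Fn1 alone gave 311 TPM of this sum in AOS-16, 244 in A129-2 and 183 in AOS-14. Col1a1, the next largest, stood at 95.4 TPM in AOS-16, 11.1 in A129-2 and 56.4 in AOS-14. The part of the feeder markers in the ER pattern was not tested.

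**Figure D4:**
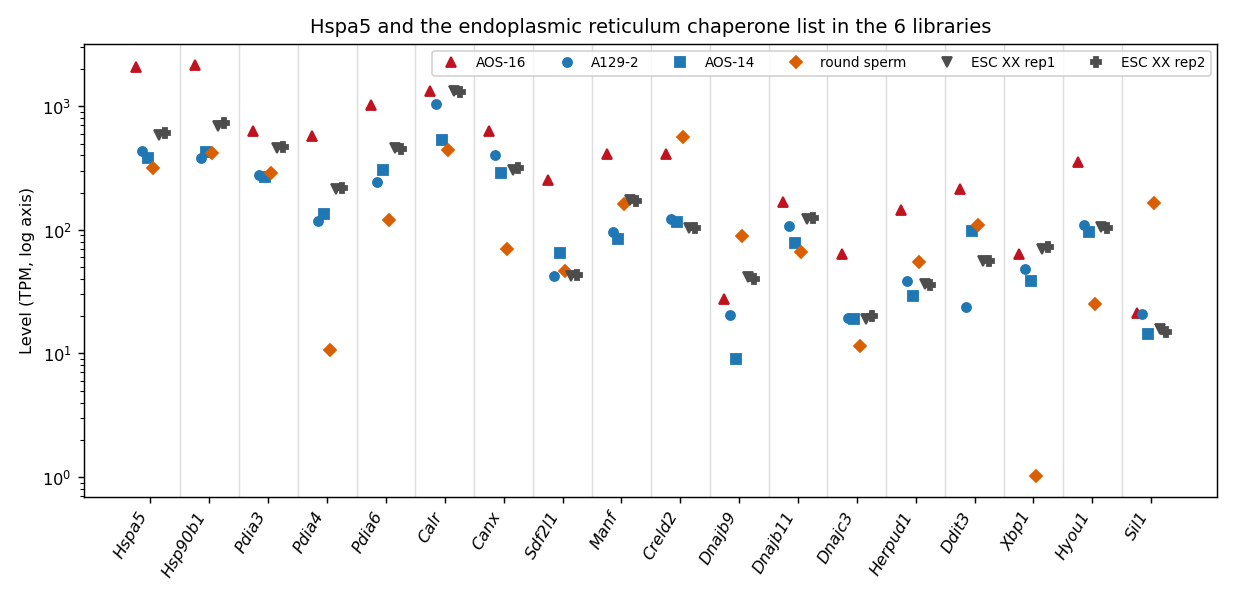
TPM (log axis) of Hspa5 and the 17 genes of the ER list in AOS-16 (red triangles), the other AG-haESC lines (blue), round sperm (orange) and ESC XX (grey), 1 point a library. AOS-16 lies above both other lines for Hspa5 and all 17 genes, by the widest margin for Hsp90b1 (2.36 on the log2 scale).

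The differences of Hspa5 between groups turned in sign without AOS-16, that against round sperm in FPKM only. Against round sperm the difference was 0.06 ± 1.27 and was not called (limma adjusted p = 0.969), and without AOS-16 it was -0.68 (limma adjusted p = 0.160). In TPM, A129-2 (436) and AOS-14 (381) both lay above round sperm (317), so that turn depended on the scale. With all 3 lines the difference was 1.15 after rescaling to the same total and 1.635 after quantile normalization, without a call. Against ESC XX the difference was 0.34 ± 1.37 (log2, SD of the lines, n = 3), and without AOS-16 -0.41. Against round sperm 22.8% of all genes tested were called higher and 39.1% lower. Within the ER list 1 gene rose and 2 fell against round sperm, and without AOS-16 2 rose and 5 fell. Xbp1, a transcription factor of the ER stress response, rose by 3.71 ± 0.26 (limma adjusted p = 0.00395), and Sil1 fell as given above. Dnajb9 fell by 3.33 ± 0.57 on the log2 scale (limma adjusted p = 0.0226). Its call was lost when A129-2 was left out (limma adjusted p = 0.0832), after rescaling (limma adjusted p = 0.0918) and after quantile normalization (limma adjusted p = 0.0691).

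Between AG-haESCs and ESC XX no member differed by more than Hspa1b, at -1.34 on the log2 scale. These libraries come from tables normalized separately, so no test was run, and a gene was called when the group means of log2(TPM + 1) differed by at least 1, after removing the median difference of all genes (-0.10), and no library of one group overlapped the other. By this rule 2 of 9 members were lower in AG-haESCs and none was higher, against 7.82% and 6.93% of 14251 genes (14.7% in all). Of all calls 47.0% were higher in AG-haESCs, and 32.1% were with no median removed. The 2 were Hspa1a (-1.08 ± 0.57, SD of the lines, n = 3) and Hspa1b (-1.34 ± 0.52). Together they stood at 3.42, 2.495 and 7.16 TPM in A129-2, AOS-14 and AOS-16, against 13.9 and 12.99 TPM in ESC XX. AOS-16 lay nearest to ESC XX. Hspa1a fell just short of a difference of 1 without A129-2 (-0.85) and without AOS-14 (-0.996), so its call was lost in both cases, while Hspa1b kept its call. In the same libraries, immediate early genes summed to 349 to 575 TPM in AG-haESCs, against 1110 and 1074 in ESC XX. Egr1 alone stood at 1.71 to 4.44 TPM in AG-haESCs, against 395 and 380 in ESC XX. By the rule above 3 of the 10 immediate early genes were lower in AG-haESCs and none was higher. The feeder fibroblast sum was 267 to 498 TPM in AG-haESCs, against 2089 and 2087 in ESC XX. Of that sum Fn1 gave 183 to 311 TPM, against 721 and 718. The parts of these 2 lists in the lower Hspa1a and Hspa1b were not tested.

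The germ cell members were low in both kinds of stem cell. Hspa2 stood at 6.54, 5.77 and 6.59 TPM in AG-haESCs, against 8.92 and 9.52 in ESC XX, and Hspa1l at 0.478, 0.323 and 1.61, against 0.747 and 0.745. Hspa4l stood at 7.54, 3.70 and 5.82 TPM in AG-haESCs, against 2.43 and 2.74 in ESC XX, and its groups did not overlap. Its difference of 0.96 ± 0.44 (SD, n = 3) lay just under the bound of 1, and it passed with a pseudocount of 0.1 (1.18), after quantile normalization (1.03), without AOS-14 (1.10) and without ESC XX replicate 2 (1.02). Hspa8 was lower in AG-haESCs without reaching the bound (-0.67 ± 0.13), at 2973, 2513 and 2607 TPM against 4524 and 4696. Hspa4 differed by -0.46 ± 0.25 and Hspa9 by 0.19 ± 0.26.

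A comparison of round sperm with ESC XX, of 1 library against 2, gave the same 4 genes the largest differences. Hspa4l was 7.84 higher in round sperm on the log2(TPM + 1) scale after removing the median of all genes (-0.66), Hspa1l 7.81 and Hspa2 7.55, and the difference of Hspa8 was -6.76. Hspa1a (-1.26) and Hspa1b (-2.56) were also past the bound of 1, which makes 3 members higher and 3 lower in round sperm, 6 of 9. Of 16096 genes 73.6% were past it, 38.7% higher and 34.9% lower. The share of these that were higher in round sperm was 52.6%, and 41.5% with no median removed. Hspa4 (-0.34), Hspa5 (-0.25) and Hspa9 (-0.41) were not. With no median removed 8 of 9 members passed the bound, and with quantile normalization all 9 did.

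The levels of the 9 members in TPM ran in a different order in each group. In AG-haESCs the order by mean was Hspa8 (2698 ± 243, SD, n = 3), Hspa5 (972 ± 976), Hspa9 (514 ± 93.5), Hspa4 (204 ± 36.4), Hspa2 (6.30 ± 0.46), Hspa4l (5.69 ± 1.92), Hspa1b (2.89 ± 1.44), Hspa1a (1.47 ± 1.05) and Hspa1l (0.802 ± 0.700). The neighbours Hspa5 and Hspa9, Hspa2 and Hspa4l, Hspa4l and Hspa1b, Hspa1b and Hspa1a, and Hspa1a and Hspa1l overlapped in range over the lines. Within each line, however, Hspa4l was above Hspa1b, Hspa1b above Hspa1a, and Hspa1a above Hspa1l. Hspa5 stood above Hspa9 in AOS-16 alone, and without that line the means were 409 ± 39.0 TPM for Hspa5 and 464 ± 51.8 for Hspa9 (SD, n = 2). Without AOS-16 the means of Hspa1a (0.862 TPM) and Hspa1l (0.401 TPM) were also lower by over 1.5 times. In round sperm the order was Hspa2 (1204), Hspa4l (518), Hspa5 (317), Hspa1l (246), Hspa9 (227), Hspa4 (148), Hspa8 (25.9), Hspa1a (0.399) and Hspa1b (0.0851). In ESC XX it was Hspa8 (4610 ± 122, SD, n = 2), Hspa5 (596 ± 21.5), Hspa9 (478 ± 12.8), Hspa4 (299 ± 0.722), Hspa2 (9.22 ± 0.426), Hspa1b (9.12 ± 0.372), Hspa1a (4.32 ± 0.267), Hspa4l (2.59 ± 0.215) and Hspa1l (0.746 ± 0.00159), where Hspa2 and Hspa1b overlapped.

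Among 16752 genes the pattern most like that of each member was sought as the smallest mean absolute difference of centred log2(TPM + 1) over the 6 libraries. For Hspa2 the nearest genes were Ankrd42 (0.0822), Hdhd1a (0.0940) and Ccdc89 (0.109). For Hspa1l they were Galnt3 (0.127), Lrrc23 (0.181) and Ttc18 (0.189), and for Hspa4l they were Letm2 (0.117), Syce3 (0.137) and 1700023F06Rik (0.141). Hspa5 was nearest to Hsp90b1 (0.154), Esrp1 (0.157) and Stc1 (0.185). Hspa1a was nearest to Crispld2 (0.105), Olig3 (0.127) and Ltbp3 (0.127). The 6 libraries of this search include 1 of round sperm and 1 of AOS-16.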

How the data were processed

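Messenger RNA was profiled in 6 libraries from 3 tables. The submitters' processing notes name TopHat2 2.0.13, Cuffdiff 2.2.1 and build mm9, without settings, strand use or scaling between libraries. The deposited FPKM values name their unit for ESC XX, and for the other 4 libraries the unit was taken from the tool and the values. Per the labels, the libraries came from polyA RNA and a stranded kit.

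AG-haESCs and round sperm, which share a table, were compared with limma 3.58.1 in R 4.3.3 (mean-variance trend) on log2(FPKM + 1), keeping genes of at least 1 FPKM in 1 library. A call needed an adjusted p under 0.05 and a difference of at least 1. The pseudocount understates the change of low genes. Comparisons with ESC XX used TPM without a test. Depth was estimated from the value of 1 fragment in 1641 genes of 1 transcript of at least 2000 nt, and is approximate. Lengths came from a GRCm38 annotation (94.6% of symbols). Short genes are those with transcripts under 200 nt. No member was listed at 0. Nothing in the labels says that libraries of a group are separate cultures, so p-values measure only the spread between these libraries. Scripts were tested on simulated data. Members and lists were chosen with earlier results of these data known. The text names all members and the 3 called genes of each list with the largest difference from round sperm. It also names the 3 genes nearest in pattern to 5 members. Besides these, Klf4, Ldhc, Mael, Sycp3, Dmc1, Fn1, Col1a1, Egr1, Grpel2, Dnajb1 and the ER genes of AOS-16 were picked after their values were seen. Alternatives were the pseudocount, the filter, the scaling, the mean-variance trend and each library left out; those without short genes against ESC XX, both for AOS-16, and the member means without AOS-16 were added after seeing the data.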

Additional observations from a re-analysis of the deposited data

How the results depend on the processing

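No paired analysis was possible because the labels link no library of one group to a library of another. The number of genes called between AG-haESCs and round sperm stayed within 1.5 times under every alternative run, as did those against ESC XX and between round sperm and ESC XX. Leaving out a line gave 7780 to 9409 calls against round sperm, where all 3 lines gave 9864. The share of calls higher in AG-haESCs was 36.8% in FPKM, 52.1% of calls after rescaling to the same total and 52.6% after quantile normalization. Of the 9 members 4 were called against round sperm, 7 were after quantile normalization, and 4 to 5 with a line left out. After quantile normalization Hspa4 turned to 1.13 and Hsf1 to 0.0499 (limma adjusted p = 0.858), and the cause was not tested. Against ESC XX 2 members were called, and 1 to 3 with a library left out (1 without A129-2; without AOS-14 Hspa4l was called in place of Hspa1a). Adding 6 further HSP70 superfamily genes to the sum put Hspa2 at 43.6% in round sperm. The 4 members called against round sperm kept their direction and call in all 10 alternatives. Other genes named from lists gave 31 lost calls with the same direction in 289 values, besides the reversed Hsf1, whose call was lost too; among the 31 are those of Fos, Ier2 and Ier3, which lost theirs without AOS-14 and without AOS-16. With 1 round sperm library, its own variation could not be measured, and the members under 1 FPKM rest on few fragments.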
